A study of Mus musculus with 58 samples.

Results

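Glucose metabolism of mouse microglia was followed through 36 genes of glycolysis, lactate handling, pyruvate entry into mitochondria and the pentose phosphate pathway, together with the transcription factor gene Hif1a. The 36 symbols were given as a list, which was chosen with earlier results of these data known. Each matched 1 Ensembl gene among the 47643 genes counted in each of 34 libraries. In the first experiment, wild-type primary microglia were exposed to fibrils of full-length tau (2 µg/ml, 24 h) or to vehicle (4 cultures each). In the second, microglia were isolated with anti-CD11b beads from PS19 males, in which the mouse prion promoter drives P301S mutant human tau, and from nontransgenic (NTG) males, all 10.98 to 11.18 months old (4 mice each). In the third, IkbkbCA primary microglia (Cx3cr1CreERT2/+, with a constitutively active IKKβ inserted behind a floxed stop) were set beside IkbkbWT cells (5 cultures each). In the fourth, Ikbkb-/- primary microglia (Cx3cr1CreERT2/+, with floxed Ikbkb) were set beside Ikbkb+/+ cells (4 cultures each). The controls of both Ikbkb experiments were littermates with the same floxed alleles and no Cre, and all of these cultures received 4-hydroxytamoxifen, so the Cre allele, with its loss of 1 Cx3cr1 copy, and the change in IKKβ cannot be told apart. The labels do not say whether the libraries of a group came from separate litters, so p-values measure the spread between these libraries, which may be partly technical.

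Glycolysis takes glucose in through transporters, traps it with hexokinase, commits it at phosphofructokinase and ends in pyruvate, which is either reduced to lactate and exported or oxidised in mitochondria. The pentose phosphate pathway branches off after hexokinase and supplies NADPH and ribose. Myeloid cells that receive inflammatory signals are known to raise glycolysis, in part through HIF-1α, and IKKβ is the kinase that releases NF-κB from its inhibitor.

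The libraries held 1672052 to 8349128 counted reads. Reads outside annotated genes were 16.3% to 22.2% with tau fibrils against 23.3% to 29.1% with vehicle, and 12.4% to 14% in IkbkbCA against 15.9% to 18.7% in IkbkbWT. They were 19.9% to 38.3% in PS19 and 23.4% to 34.8% in NTG, where PS19 replicates 1, 3 and 4 lay below every NTG library. Ikbkb, the gene of IKKβ, stood at 18.8 to 25.4 CPM (reads of a gene per 1000000 reads of its library, with library sizes scaled by TMM) in Ikbkb-/- and 45.9 to 55 in Ikbkb+/+, while in IkbkbCA (45 to 59.8) and IkbkbWT (41.2 to 58.6) it overlapped, and whether the end of the transgene would be counted is not known, so this does not check that label. All 12 microglia markers were detected in every group. PS19 replicate 1, labelled male, held 161 CPM of the female transcript Xist beside 112 CPM of Y-linked Ddx3y, and PS19 replicate 2 had the highest share outside genes. Xist stood at 28.7, 3.93 and 1.67 CPM in PS19 replicates 2, 3 and 4 and at 25.6 to 29.1 CPM in NTG, also labelled male. The reason was not tested. Ikbkb-/- cultures held 5.69 to 10.7 CPM of Xist against 248 to 399 in Ikbkb+/+, so genotype and the sex of the pups cannot be told apart there. IkbkbWT replicate 3 and IkbkbCA replicate 3 stood apart in the myelin gene Mbp, at 1972 and 717 CPM.

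Not every gene could be read. Gapdh, Pgk1 and Pgam1, which encode the abundant enzymes between triose phosphate and 2-phosphoglycerate, were close to 0 in all 34 libraries and were tested in no comparison. Gapdh reached at most 15 reads in a library, with 1.19, 1.15, 1.66, 1.4 and 1.0 CPM in IkbkbCA and 1.79, 1.83, 1.15, 1.32 and 1.61 CPM in IkbkbWT, and Pgk1 and Pgam1 reached at most 16 and 13 reads. QuantSeq reads come from the 3′ end of transcripts, and only reads with a single place in the genome were counted on a gene. For Gapdh, 100% of the last 400 bases matched transcripts of other genes at 95% identity or more, over 75 genes of which 72 are pseudogenes. For Eno1, 99.3% to 100% matched 4 other genes, and its values (9.98 to 49.5 CPM in cultures) are uncertain for that reason. The ends of Pgk1 and Pgam1 matched no annotated transcript, although 68.8% and 43.1% of their longest transcripts did, and the reason for their low counts was not tested. Smaller parts of the ends of Ldhb (52.3%), Pdha1 (44.8%), Gpi1 (31.5%) and Pdhb (14.5%) were shared, as were the ends of single transcripts of Pfkp, Tpi1 and Eno2, and 27 of the 36 genes shared no base at any end. The remaining 33 genes were tested in at least 1 comparison and 32 in all 4, since Eno2, the neuronal enolase, was too low in PS19 and NTG and in the Ikbkb-/- experiment.

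**Figure D1:**
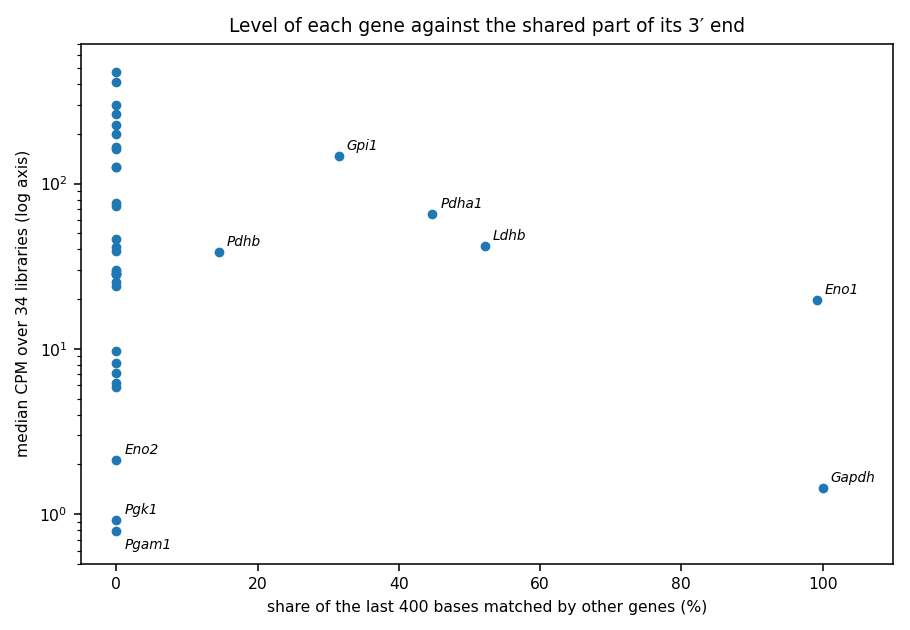
Median CPM over the 34 libraries (vertical, log axis) against the part of the last 400 bases of a gene's transcripts that other genes match (horizontal, in percent, lowest over its transcripts), 1 point per gene. Gapdh and Eno1 lie at the right edge, while Pgk1 and Pgam1 are lower still at 0%.

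Levels were first compared over all 34 libraries scaled together, as a description without a test, because the experiments differ in cells and time. Hk2, the inducible hexokinase, stood at 402 to 1646 CPM in the 8 libraries of adult microglia and 86.7 to 278 CPM in the 26 libraries of cultures. Pfkfb3, whose product makes the fructose 2,6-bisphosphate that activates phosphofructokinase, and Ldhb, the heart-type lactate dehydrogenase subunit, were the other genes whose adult range (196 to 498 and 145 to 317 CPM) lay wholly above that of cultures (89.5 to 149 and 21.2 to 59.4). Gpi1, Aldoa and Pkm, the isomerase, aldolase and pyruvate kinase of the main glycolytic line, lay wholly below, with Aldoa at 126 to 215 CPM in adult microglia and 243 to 864 CPM in cultures. The other 30 genes overlapped, and of all 12857 genes tested in any comparison 10.5% had ranges apart in this way (7.46% above and 3.05% below in adult microglia). Marker sums on the same scale also differed between adult microglia and cultures. Microglia markers summed to 35236 to 49912 CPM in PS19 and NTG against 5397 to 25171 CPM in cultures, granulocyte markers to 422 to 2648 CPM against at most 400 CPM, and endothelial markers to 230 to 602 CPM against 28.1 to 214 CPM. Their part in the levels was not tested. Summed over the 36 genes, the mean was 4261 CPM with tau fibrils and 3547 with vehicle, 3841 in PS19 and 3439 in NTG, 4340 in IkbkbCA and 3094 in IkbkbWT, and 3467 in Ikbkb-/- and 3377 in Ikbkb+/+. These sums overlapped between PS19 (3524 to 4520 CPM) and NTG (3003 to 3651 CPM). They also overlapped between Ikbkb-/- (3084 to 3802 CPM) and Ikbkb+/+ (3302 to 3435 CPM). The sums did not overlap between tau fibrils and vehicle or between IkbkbCA and IkbkbWT. The vehicle cultures of the tau fibril experiment also stood apart from the controls of the Ikbkb experiments in some isozymes. Aldoc, the brain aldolase found mainly in astrocytes, stood at 160 ± 7.11 CPM (SD, n = 4) in vehicle and 7.26 ± 6.5 CPM (n = 5) in IkbkbWT, and Pfkm and Pfkp, the muscle and platelet phosphofructokinases, at 31.9 ± 6.52 and 43.4 ± 5.7 CPM in vehicle and 4.92 ± 2.1 and 9.0 ± 3.04 CPM in IkbkbWT. Summed astrocyte markers were 697 to 784 CPM in vehicle and 52.6 to 814 CPM in IkbkbWT, the highest value being that of replicate 3. Aldoc reached at most 18.5 CPM in IkbkbWT. The markers summed to 700 to 1074 CPM in NTG and 888 to 2049 CPM in PS19, where Aldoc reached at most 15.7 and 32.7 CPM. With tau fibrils both lay below vehicle, with markers at 388 to 504 CPM and Aldoc at 43.2 to 104 CPM. The part of astrocyte RNA in the Aldoc levels was not tested. In RNA from a mixed population, fewer cells of a type and less RNA per cell cannot be told apart.

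**Figure D2:**
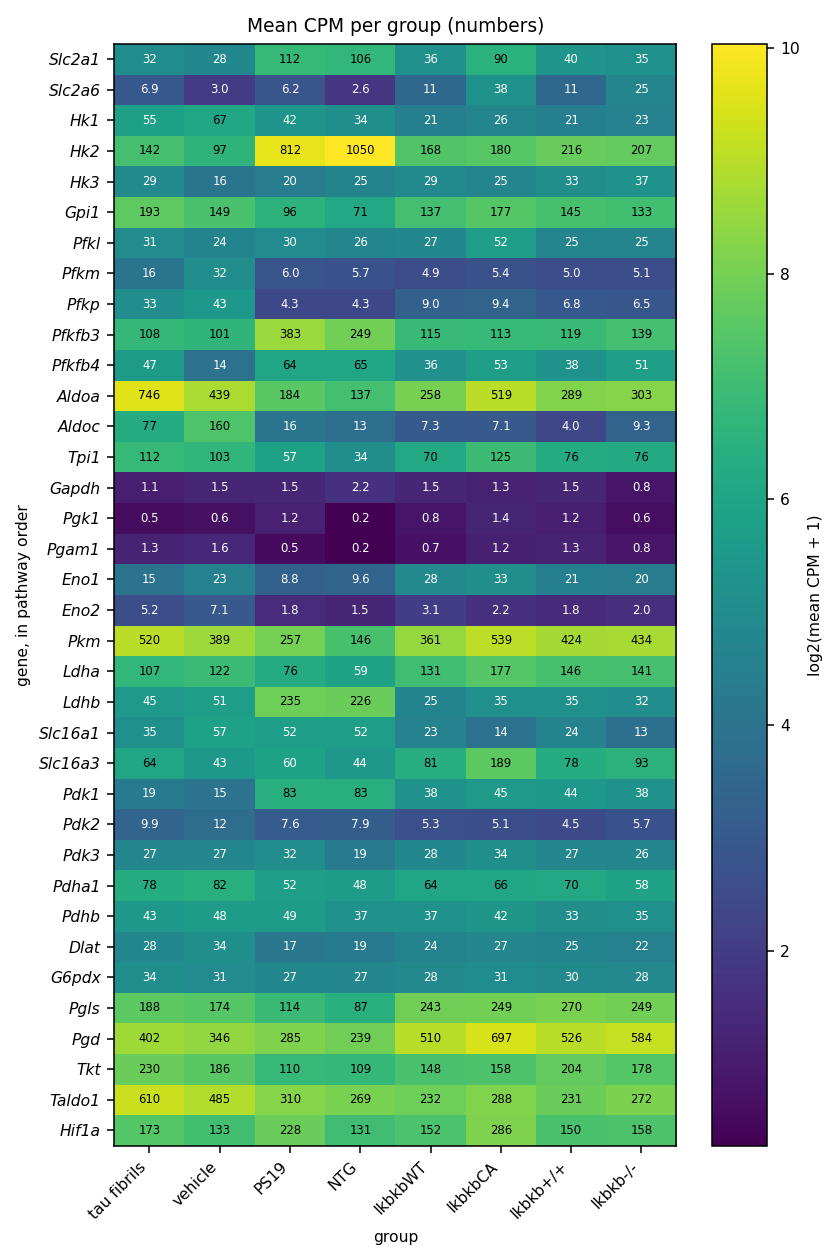
Mean CPM of the 36 genes in the 8 groups, scaled over all libraries (numbers) and coloured by log2(mean CPM + 1), with genes in pathway order. Gapdh, Pgk1 and Pgam1 are dark throughout, and Hk2, Pfkfb3 and Ldhb are brighter in the PS19 and NTG columns.

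With tau fibrils 13 of the 33 genes tested changed, 10 up and 3 down (quasi-likelihood test in edgeR, FDR by Benjamini-Hochberg, threshold 0.05), where 29.9% of all 10408 genes were called, 14.5% higher and 15.4% lower. The groups did not overlap for 10 of the 33, beside 28.3% of all genes. The rise was led by Pfkfb4, a bifunctional enzyme that sets fructose 2,6-bisphosphate. Its level was 43.2, 44.6, 44.9 and 70.0 CPM with tau fibrils and 12.8, 15.8, 16.1 and 17.4 CPM with vehicle, 3.23-fold higher (log2 fold change 1.69 ± 0.21 (SE), FDR = 4.37e-07). Every treated culture lay above every vehicle culture, and replicate 4 stood above the other 3. Among the called rises whose groups did not overlap, Aldoa was the next in size, at 644, 721, 928 and 915 CPM against 534, 525, 394 and 460 CPM (1.68-fold, log2 fold change 0.75 ± 0.14 (SE), FDR = 0.000162). Slc16a3, the lactate exporter MCT4, was at 61.9, 63.1, 73.8 and 75.8 CPM against 53.6, 56.7, 33.6 and 43.6 CPM (1.45-fold, log2 fold change 0.54 ± 0.17 (SE), FDR = 0.0188). Hk2 was at 168, 165, 132 and 146 CPM against 108, 115, 105 and 94.4 CPM (1.44-fold, log2 fold change 0.52 ± 0.13 (SE), FDR = 0.00348). None of these 3 genes overlapped between the groups. The further rises were in Slc2a6, a lysosomal glucose transporter family member, the myeloid hexokinase gene Hk3, Gpi1, Pkm, Taldo1, which encodes transaldolase, and Hif1a, with log2 fold changes of 1.27, 0.86, 0.35, 0.40, 0.31 and 0.36. Slc2a6 rested on 8.41, 5.41, 11.9 and 3.74 CPM against 2.92, 1.42, 6.15 and 2.73 CPM, and these groups overlapped. It was not called by DESeq2 (FDR = 0.066). With 1 of the 8 libraries left out the call was kept in 0 of 8 fits for Taldo1, 3 for Slc2a6 and Gpi1, 4 for Hif1a, 5 for Pkm, 6 for Slc16a3 and 7 for Hk3. Without tau_fibrils replicate 3 these 7 genes lost it.

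The 3 genes that fell were Aldoc, Pfkm and Slc16a1, the monocarboxylate transporter MCT1. Aldoc was at 81.1, 111, 93.7 and 46.5 CPM with tau fibrils and 173, 175, 185 and 166 CPM with vehicle, 2.09-fold lower (log2 fold change -1.06 ± 0.17 (SE), FDR = 2.58e-05). Pfkm was at 19.2, 16.2, 17.5 and 14.4 CPM against 24.5, 37.8, 40.7 and 36 CPM, 2.08-fold lower (log2 fold change -1.06 ± 0.22 (SE), FDR = 0.000419). Both had no overlap, whereas Slc16a1, at 31.2, 34.3, 38.5 and 47.5 CPM against 71.7, 68.7, 64.8 and 45.3 CPM (log2 fold change -0.73 ± 0.18 (SE), FDR = 0.00308), overlapped through vehicle replicate 4. Pfkp lay below every vehicle culture in all 4 treated cultures but missed the threshold (log2 fold change -0.42 ± 0.19 (SE), FDR = 0.0963). The basal transporter gene Slc2a1 (log2 fold change 0.19, 95% interval -0.20 to 0.58), Ldha (-0.19, -0.50 to 0.11) and Pfkfb3 (0.08, -0.21 to 0.37; -0.08 when scaled by total counts) were not called. The 6 genes of pyruvate entry (Pdk1, Pdk2, Pdk3, Pdha1, Pdhb and Dlat) had 0 calls by edgeR and 0 at an unadjusted p under 0.05.

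Over the 33 genes the median log2 fold change was 0.11, beside -0.01 over all genes tested. With scaling by total counts these medians were -0.04 and -0.16, and the split changed from 10 up and 3 down to 4 up and 6 down, of which 7 were called under both. The count fell to 6 without tau_fibrils replicate 3 and to 3 when the percentage of reads outside annotated genes entered the fit as a covariate, a percentage that did not overlap between the groups. Markers of cell types moved with the treatment too. Summed microglia markers were 12395 to 14243 CPM with tau fibrils and 5397 to 6919 CPM with vehicle, with 7 of 12 markers called higher. Summed astrocyte markers were 388 to 504 against 697 to 784 CPM and neuron markers 193 to 249 against 362 to 445 CPM, with 6 of 9 tested called lower in each list and no marker of either at 0. Border macrophage markers summed to 926 to 1098 against 200 to 272 CPM, with 2 of 3 tested called higher, and all 6 cell cycle genes were called lower. Their part in the results, including those for Aldoc and Pfkm, was not tested.

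**Figure D3:**
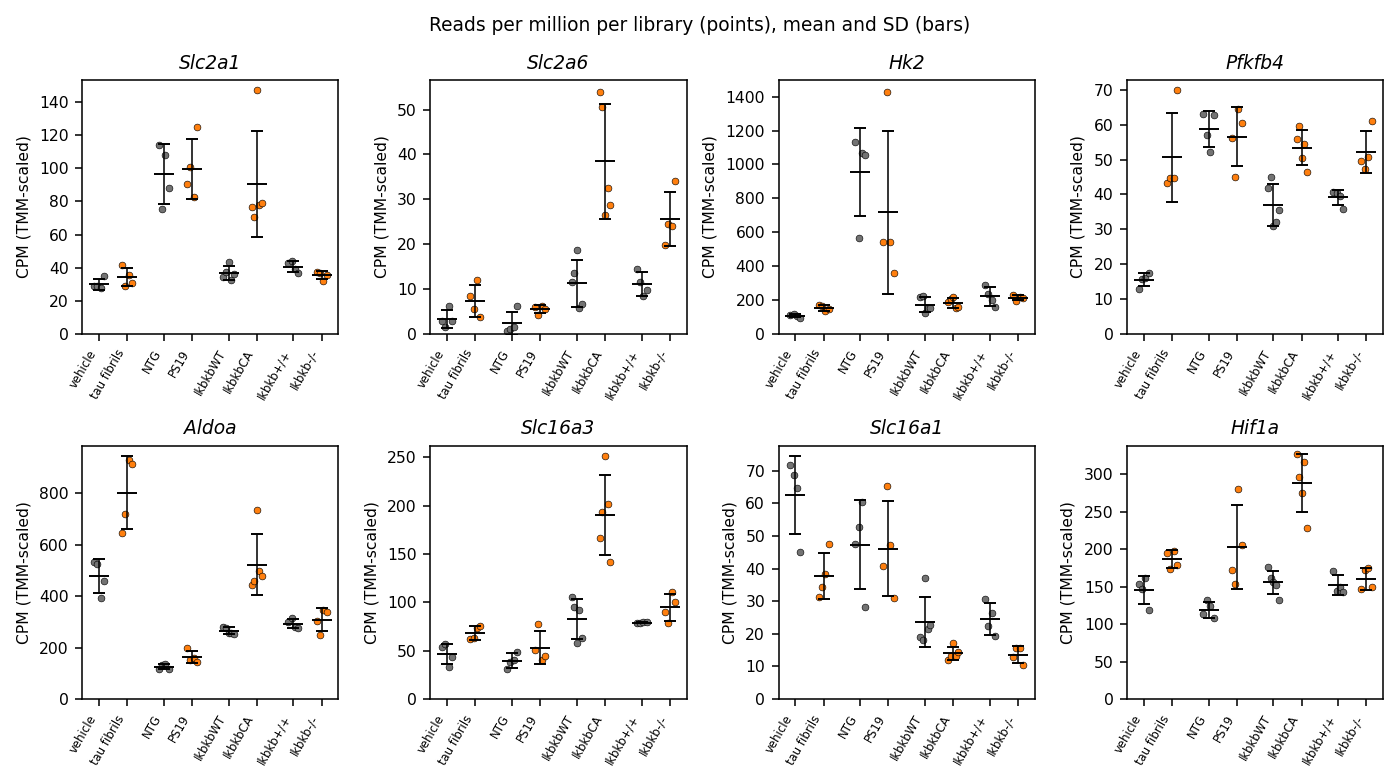
CPM of 8 genes in each library (points; grey controls, orange treated or mutant), scaled within each experiment, with mean and SD (bars). Slc2a1, Aldoa, Slc16a3 and Hif1a in IkbkbCA and Pfkfb4 with tau fibrils lie wholly above their controls, and Slc16a1 lies below them in both Ikbkb experiments.

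In microglia from 11-month PS19 mice none of the 32 genes tested passed the threshold, where 0.0707% of 11323 genes did. At an unadjusted p under 0.05 the edgeR test had 7 of the 32 genes, beside 977 of the 11323 (8.63%), while DESeq2 called 1 at its own FDR under 0.05 and limma-voom called 0. All 7 (Slc2a6, Pfkfb3, Aldoa, Tpi1, Pkm, Pdk3 and Hif1a) had positive log2 fold changes. For 3 of them the PS19 libraries lay wholly above the NTG libraries, a pattern met by 5.77% of all genes in either direction. Pkm was at 275, 201, 210 and 232 CPM in PS19 and 110, 134, 133 and 156 CPM in NTG (log2 fold change 0.78 ± 0.18 (SE), FDR = 0.193). Hif1a was at 172, 154, 281 and 206 CPM against 113, 132, 124 and 108 CPM (log2 fold change 0.77 ± 0.21 (SE), FDR = 0.309). Aldoa was at 198, 152, 161 and 144 CPM against 115, 131, 136 and 118 CPM (log2 fold change 0.39 ± 0.17 (SE), FDR = 0.567). These 3 genes were higher in 4 of 4 PS19 mice, by 1.72-, 1.7- and 1.31-fold in the fit, without passing it. Pfkfb3 was at 247, 320, 441 and 352 CPM against 228, 180, 260 and 238 CPM (log2 fold change 0.59 ± 0.21 (SE), FDR = 0.456), with PS19 replicate 1 inside the NTG range.

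Hk2 varied widely within both groups, at 540, 1430, 541 and 357 CPM in PS19 and 1133, 567, 1065 and 1057 CPM in NTG (log2 fold change -0.42 ± 0.38 (SE), FDR = 0.798). PS19 replicate 2 was the highest of all 8 and NTG replicate 2 was low among its group. Slc2a1 (90.8, 101, 82.7 and 125 CPM against 114, 75.6, 108 and 88.4 CPM) and Slc16a3 (0.41, 95% interval -0.10 to 0.93) overlapped between genotypes. The median log2 fold change of the 32 genes was 0.17, beside 0.00 over all genes. With the percentage of reads outside annotated genes as a covariate, none of the 32 was called. The biological coefficient of variation was 30.5% here, against 16.7%, 23.5% and 10.9% in the tau fibril, IkbkbCA and Ikbkb-/- experiments. Left out together, PS19 replicates 1 and 2 gave 4 called genes, with Hif1a, Pfkfb3 and Pkm higher and Hk2 lower (log2 fold changes 1.05, 0.83, 0.75 and -1.07), a choice made after the values were seen. Summed granulocyte markers ran from 422 to 2648 CPM in PS19 and 1612 to 2242 CPM in NTG, and their part in the spread of Hk2 was not tested.

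In IkbkbCA cultures 12 of the 33 genes tested changed, 11 up and 1 down, where 14.5% of 11697 genes were called, 7.31% higher and 7.16% lower. The groups did not overlap for 11 of the 33, beside 12.7% of all genes. Genes called higher included glucose transporter family members, glycolysis genes and a lactate exporter, with other steps between them not called or not tested. Slc2a6 was at 53.9, 50.6, 26.5, 32.4 and 28.8 CPM in IkbkbCA and 11.5, 13.6, 18.7, 5.79 and 6.69 CPM in IkbkbWT (3.46-fold, log2 fold change 1.79 ± 0.32 (SE), FDR = 0.00292, edgeR with Benjamini-Hochberg adjustment). Slc2a1, the glucose transporter GLUT1, was at 76.6, 70.8, 147, 77.9 and 79.1 CPM against 34.3, 37.4, 43.3, 32.6 and 36.2 CPM (2.46-fold, log2 fold change 1.30 ± 0.19 (SE), FDR = 0.00083). All 5 IkbkbCA cultures lay above all 5 controls for both genes, and replicate 3 was far above the rest for Slc2a1 and the lowest for Slc2a6. Slc16a3 was at 166, 193, 251, 202 and 141 CPM against 105, 95.6, 57.5, 92 and 63.5 CPM (2.31-fold, log2 fold change 1.21 ± 0.19 (SE), FDR = 0.00131). Aldoa was at 444, 458, 734, 499 and 480 CPM against 282, 278, 256, 257 and 255 CPM (1.97-fold, log2 fold change 0.98 ± 0.13 (SE), FDR = 0.000417). Neither overlapped between the genotypes, and replicate 3 was again the highest IkbkbCA culture for both. Hif1a was at 326, 296, 275, 316 and 229 CPM against 176, 161, 157, 152 and 133 CPM (1.85-fold, log2 fold change 0.89 ± 0.11 (SE), FDR = 0.00021), without overlap and with replicate 3 inside the range of the other IkbkbCA cultures.

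The other 6 rises were spread over the pathway. Pfkl, the liver-type phosphofructokinase, had a log2 fold change of 0.89, Tpi1 (triose phosphate isomerase) of 0.81, Pkm of 0.55, Pfkfb4 of 0.53, Ldhb of 0.46 and Pgd, the second NADPH-producing enzyme of the pentose phosphate pathway, of 0.42. Of these 6, only Pgd overlapped between the genotypes (599 to 802 against 437 to 601 CPM). Slc16a1 was the gene that fell, at 12.1, 13.2, 17.1, 13.1 and 14.5 CPM against 19, 18.1, 37.1, 21.5 and 22.7 CPM (1.69-fold lower, log2 fold change -0.76 ± 0.20 (SE), FDR = 0.024). All 5 IkbkbCA cultures lay below the controls, of which replicate 3 was the highest. The exporter gene Slc16a3 rose while its relative Slc16a1 fell. The call was lost for Slc16a1 without IkbkbCA replicate 1, 2 or 4, for Tpi1 without IkbkbWT replicate 2, 4 or 5, and for Pgd in 6 of the 10 fits that left out 1 library.

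Hexokinase genes and the first step of the pentose phosphate pathway showed no call. Hk2 was at 188, 202, 214, 149 and 155 CPM in IkbkbCA and 214, 222, 120, 152 and 151 CPM in IkbkbWT (0.08, 95% interval -0.29 to 0.46, for the log2 fold change). G6pdx, the rate-limiting glucose 6-phosphate dehydrogenase, was at 34.1, 31.8, 34, 27.1 and 30.0 CPM against 30.9, 34.6, 25.2, 29 and 24.6 CPM (0.13, -0.12 to 0.38). Pfkfb3 was at 127, 121, 97.6, 117 and 106 CPM against 120, 133, 113, 98.5 and 128 CPM (-0.06, -0.28 to 0.16). These 3 genes overlapped between the genotypes, and the signs of Hk2 and Pfkfb3 turned with 1 or 2 libraries left out. Ldha was at 121, 130, 267, 196 and 176 CPM against 144, 141, 113, 135 and 138 CPM (log2 fold change 0.41 ± 0.19 (SE), FDR = 0.188), where 3 of 5 IkbkbCA cultures exceeded all controls and the other 2 did not. The pyruvate entry genes had 0 calls of 6 by edgeR, with 1 (Pdk3) at an unadjusted p under 0.05.

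The median log2 fold change of the 33 genes was 0.24, beside -0.05 over all genes. Without IkbkbCA replicate 3, 11 of the 12 genes kept their call, Pgd being the exception, and the log2 fold change of Slc2a1 was 1.07 and that of Tpi1 0.55. Without both libraries of high Mbp, an alternative chosen after the values were seen, 11 genes were called. Summed oligodendrocyte markers ran from 456 to 5430 CPM in IkbkbWT and 683 to 2091 CPM in IkbkbCA and had 0 of 9 called, with 0 at an unadjusted p under 0.05. Border macrophage markers (1374 to 1956 CPM against 1767 to 2294 CPM) had 4 of 6 called lower and 1, Ms4a7, higher. Cell cycle genes had 4 of 6 called lower (205 to 391 against 392 to 521 CPM). Of 12 microglia markers 4 were called higher, with Tmem119 and Aif1 at log2 fold changes of 1.60 and 1.16, and 2 lower, Fcrls (-1.91) and Cx3cr1 (-0.56). Of 2 granulocyte markers tested, S100a8 was called higher, at 13.8 to 75.9 CPM against 3.31 to 7.12 CPM. The part of these markers in the results was not tested. IkbkbWT replicates 1 to 3 held 145 to 173 CPM of Ddx3y and IkbkbWT replicates 4 and 5 held 473 and 494 CPM of Xist, each with little of the other, while all 5 IkbkbCA cultures held both (48.9 to 85.8 CPM of Ddx3y and 149 to 277 CPM of Xist). With Ddx3y as a covariate the same 12 genes were called.

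In Ikbkb-/- cultures 5 of the 32 genes tested changed, 4 up and 1 down, where 14.6% of 11242 genes were called, 7.64% higher and 6.96% lower. The groups did not overlap for 7 of the 32, beside 18.1% of all genes. Slc2a6 was at 19.8, 24.4, 24.1 and 34.1 CPM in Ikbkb-/- and 14.5, 11.6, 8.43 and 9.79 CPM in Ikbkb+/+ (2.46-fold, log2 fold change 1.30 ± 0.19 (SE), FDR = 7.86e-05, edgeR with Benjamini-Hochberg adjustment). Aldoc was at 6.21, 11, 11.7 and 9.03 CPM against 1.86, 4.63, 5.62 and 4.23 CPM (2.26-fold, log2 fold change 1.18 ± 0.26 (SE), FDR = 0.00405). Pfkfb4 was at 49.7, 47.4, 50.9 and 61 CPM against 40.6, 40.4, 39.7 and 35.8 CPM (1.35-fold, log2 fold change 0.43 ± 0.11 (SE), FDR = 0.00888). The groups did not overlap for these genes, and Aldoc rested on 5 to 34 reads in Ikbkb+/+. Taldo1 was at 262, 267, 284 and 298 CPM against 232, 253, 233 and 223 CPM (1.18-fold, log2 fold change 0.24 ± 0.08 (SE), FDR = 0.042). Slc16a1 fell, with 13, 15.6, 15.7 and 10.3 CPM against 30.6, 22.3, 26.3 and 19.4 CPM (1.77-fold lower, log2 fold change -0.82 ± 0.18 (SE), FDR = 0.00318). The groups were apart for Taldo1 and Slc16a1 as well. The call for Taldo1 was kept in 2 of 8 fits that left out 1 library and under 3 of 8 other alternatives.

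Slc2a1, Slc16a3, Hif1a and Aldoa, called higher in IkbkbCA, were not called here. Slc2a1 was at 37.3, 36.7, 32.1 and 35.4 CPM against 42.9, 43.8, 38.9 and 36.5 CPM (-0.19, 95% interval -0.41 to 0.03, for the log2 fold change). Slc16a3 was at 89.8, 78.8, 110 and 100 CPM against 78.3, 78.7, 79.8 and 79.6 CPM (0.26, 0.05 to 0.47). Hif1a was at 146, 172, 175 and 150 CPM against 171, 144, 150 and 144 CPM (0.09, -0.10 to 0.27). In each of them at least 1 Ikbkb-/- culture lay within the range of the controls. Aldoa (0.08, -0.13 to 0.28) did the same. Pdk1 and Pdha1, which encode a kinase of the pyruvate dehydrogenase complex and its catalytic subunit, lay below all controls in 4 of 4 Ikbkb-/- cultures but missed the threshold, with log2 fold changes of -0.20 ± 0.11 (SE, FDR = 0.282) and -0.26 ± 0.09 (SE, FDR = 0.0527) by edgeR. Pdha1 is X-linked, as are Pdk3, G6pdx and Pgk1. The median log2 fold change of the 32 genes was -0.02, beside 0.00 over all genes. The signs of Hif1a and Aldoa turned with the Y-linked Ddx3y as a covariate, where 2 genes were called and none of the 5, but Ddx3y (156 to 178 against 34.9 to 70.8 CPM) separates the genotypes fully. Without Ikbkb-/- replicate 4, 3 genes were called, Pfkfb4 and Taldo1 being lost. Oligodendrocyte markers were called higher in 7 of 9 (767 to 891 against 439 to 563 CPM summed) and border macrophage markers lower in 5 of 6, with the sixth, Ms4a7, higher. All 6 cell cycle genes were called lower (200 to 292 against 488 to 626 CPM summed). Of 12 microglia markers 2 were called higher and 3 lower. The part of these markers in the results was not tested.

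The 4 comparisons share no library. Slc2a6 and Pfkfb4 rose and Slc16a1 fell in the 3 comparisons of cultures. With 1 library left out the call for Slc2a6 with tau fibrils was kept in 3 of 8 fits, that for Slc16a1 in IkbkbCA in 7 of 10 and that for Pfkfb4 in Ikbkb-/- in 7 of 8. The tau fibril and IkbkbCA experiments had 7 called genes in common (Slc2a6, Pfkfb4, Aldoa, Pkm, Slc16a1, Slc16a3 and Hif1a), 53.8% of the 13 and 58.3% of the 12, and all 7 moved in the same direction. Over all genes these experiments shared 720 called genes, 23.2% and 42.6% of their lists, of which 86.1% moved in the same direction. All 5 genes called in Ikbkb-/- were also called with tau fibrils (38.5% of the 13), where over all genes 45.1% of those called in Ikbkb-/- and 23.8% of those called with tau fibrils were shared, 67.8% of them in the same direction. Aldoc moved in opposite directions there. Among these shared tau fibril calls, that for Taldo1 was kept in 0 of 8 fits that left out 1 library. Those for Hif1a, Pkm and Slc16a3 were kept in 4, 5 and 6 of the 8. IkbkbCA and Ikbkb-/- had 3 in common, 25% and 60%, in the same direction, beside 36.5% and 37.6% over all genes, of which 93.2% moved in the same direction. These shares are descriptions and were not tested. Of the 33 genes tested, 18 were called in at least 1 comparison and 15 in none, among them Hk1, Pfkfb3, Ldha, the 6 pyruvate entry genes and, in the pentose phosphate pathway, G6pdx, Pgls and Tkt.

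**Figure D4:**
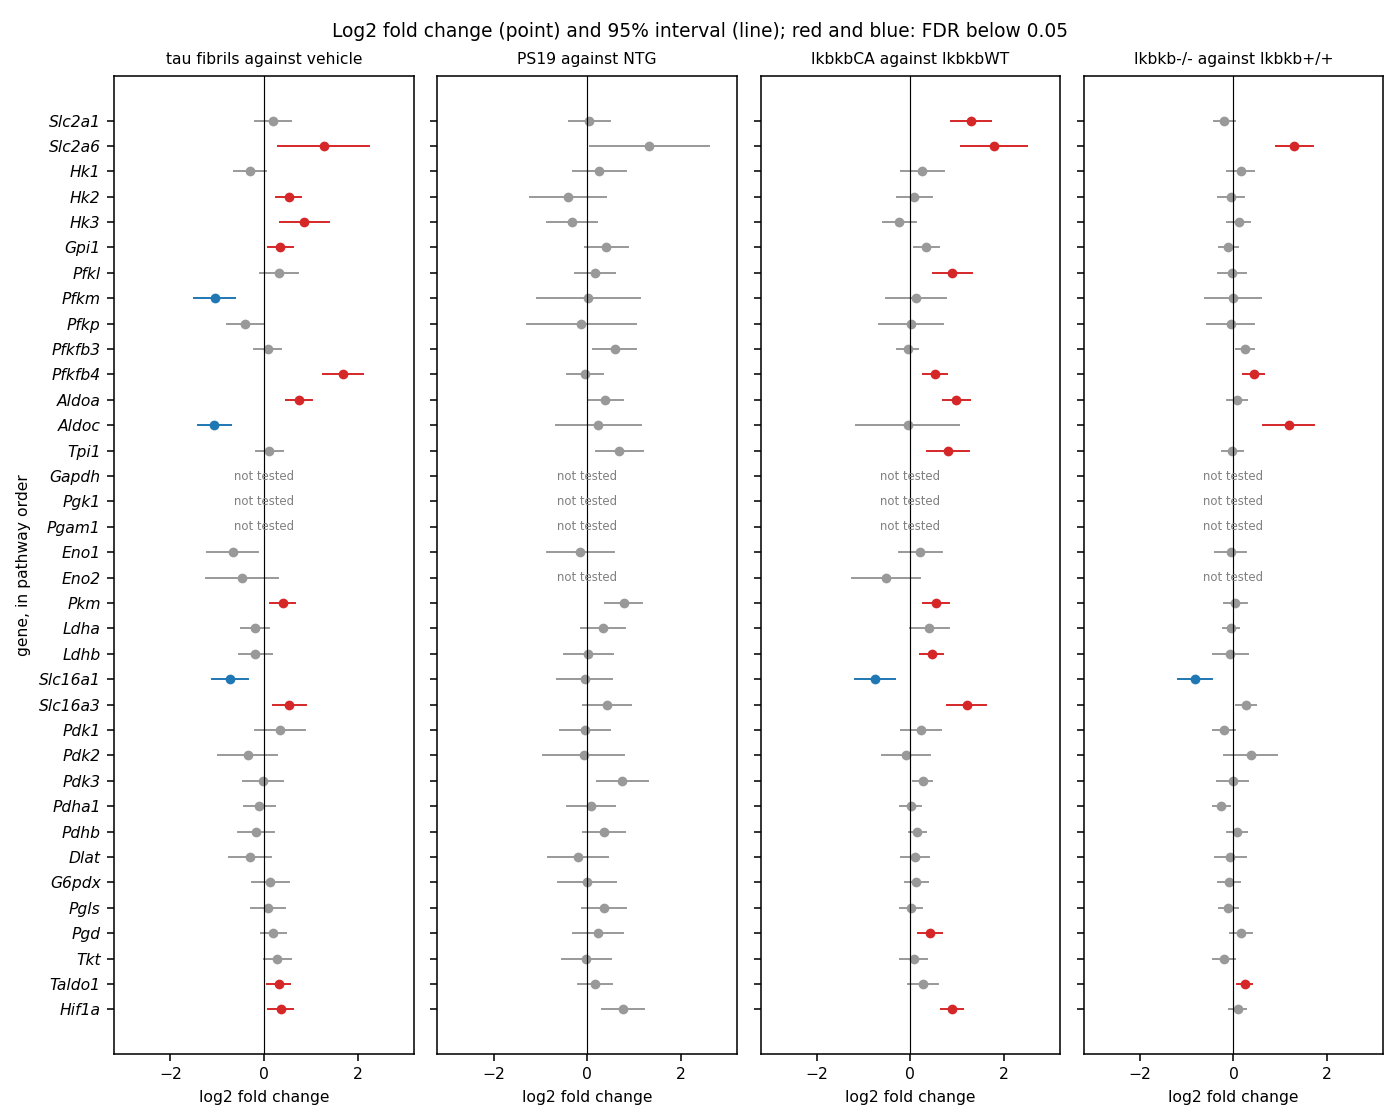
Log2 fold change (points) with 95% interval (lines) of the 36 genes in the 4 comparisons, in pathway order; red marks genes called higher, blue genes called lower and grey genes not called. In IkbkbCA the called genes spread from Slc2a1 to Hif1a, in Ikbkb-/- most points sit near 0, and no point is coloured in PS19.

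Differences between effects were tested in fits over both experiments concerned. The effect of IkbkbCA exceeded that of Ikbkb-/- for 4 genes, where 3.12% of 12352 genes were called (2.23% higher, 0.899% lower). Genotype and the sex of the pups cannot be told apart in the Ikbkb-/- experiment, and these differences carry that limit. The difference of log2 fold changes was 1.51 ± 0.25 (SE), FDR = 0.00131 (edgeR, Benjamini-Hochberg), for Slc2a1. For Hif1a it was 0.82 ± 0.15 (SE), FDR = 0.0034 (edgeR). For Aldoa it was 0.92 ± 0.18 (SE), FDR = 0.00649, and for Slc16a3 0.96 ± 0.25 (SE), FDR = 0.0372 (edgeR). The 4 genes cover uptake, the HIF factor, aldolase and lactate export, and the call for Slc16a3 was kept in 7 of 18 fits that left out 1 library, with an edgeR FDR of up to 0.0945. For the genes called in both genotypes the differences were not called, at 0.54, 95% interval -0.36 to 1.44, for Slc2a6, 0.12, 95% interval -0.22 to 0.47, for Pfkfb4, and 0.10, 95% interval -0.50 to 0.69, for Slc16a1.

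Tau fibrils and IkbkbCA differed for 6 genes, where 9.42% of 12841 genes were called (5.86% higher and 3.55% lower with tau fibrils). Slc2a1 (-1.18 ± 0.27 (SE), FDR = 0.00847, tau fibrils minus IkbkbCA, edgeR), Pfkm (-1.25 ± 0.37 (SE), FDR = 0.0355), Ldhb (-0.72 ± 0.19 (SE), FDR = 0.0194) and Hif1a (-0.60 ± 0.17 (SE), FDR = 0.0269) had the lower log2 fold change with tau fibrils. Pfkfb4 (1.09 ± 0.23 (SE), FDR = 0.00437, edgeR) and Hk3 (1.02 ± 0.32 (SE), FDR = 0.0476) had the higher one. The count of 6 was 2 without tau_fibrils replicate 3 or 4, and 3 without vehicle replicate 2, IkbkbWT replicate 2, IkbkbCA replicate 1 or IkbkbCA replicate 4. Slc2a1 and Pfkfb4 were called in every one of these fits, whereas Hk3, Pfkm and Hif1a kept their call in 5, 6 and 10 of the 18 fits that left out 1 library. Against PS19 the tau fibril effect differed for Pfkfb4 alone (1.66 ± 0.27 (SE), FDR = 0.000244, edgeR), where 8.07% of 11852 genes were called (4.42% higher, 3.65% lower) and PS19 gave 56.2, 45, 64.6 and 60.6 CPM of Pfkfb4 against 63.2, 57.1, 52.2 and 62.8 CPM in NTG. It was 3 genes without PS19 replicate 1 or 2, and 2 without PS19 replicate 3, vehicle replicate 3, tau_fibrils replicate 1 or tau_fibrils replicate 2, with Pfkfb4 called in each.

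The make-up of isozyme families was described by shares. Each transcript gives reads at its 3′ end only, so CPM were not divided by length, and shares of the summed CPM of a family are compared between groups and not between genes. Among the lactate transporters, Slc16a3 held 76.9% ± 10.0 (SD, n = 5) of the family in IkbkbWT and 93% ± 1.32 in IkbkbCA, 76.4% ± 3.63 (n = 4) in Ikbkb+/+ and 87.3% ± 2.94 in Ikbkb-/-, and 42.8% ± 6.33 with vehicle and 64.6% ± 2.2 with tau fibrils. The ranges did not overlap in any of these 3 pairs. Of the 6-phosphofructo-2-kinase genes, Pfkfb4 held 12.4% ± 1.14 with vehicle and 30.5% ± 6.71 with tau fibrils. Among the phosphofructokinases Pfkl held 24.4% ± 1.05 with vehicle and 38.9% ± 7.04 with tau fibrils, while it held 68.2% ± 4.45 in Ikbkb+/+. Pfkl itself was not called with tau fibrils (log2 fold change 0.32, 95% interval -0.08 to 0.72). Ldhb held 79.2% ± 2.11 of the lactate dehydrogenase pair in NTG and 73.9% ± 11.7 in PS19, where the ranges overlapped, and between 10.2% and 34.7% in every culture. These shares are descriptions of the values above and were not tested.

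**Figure D5:**
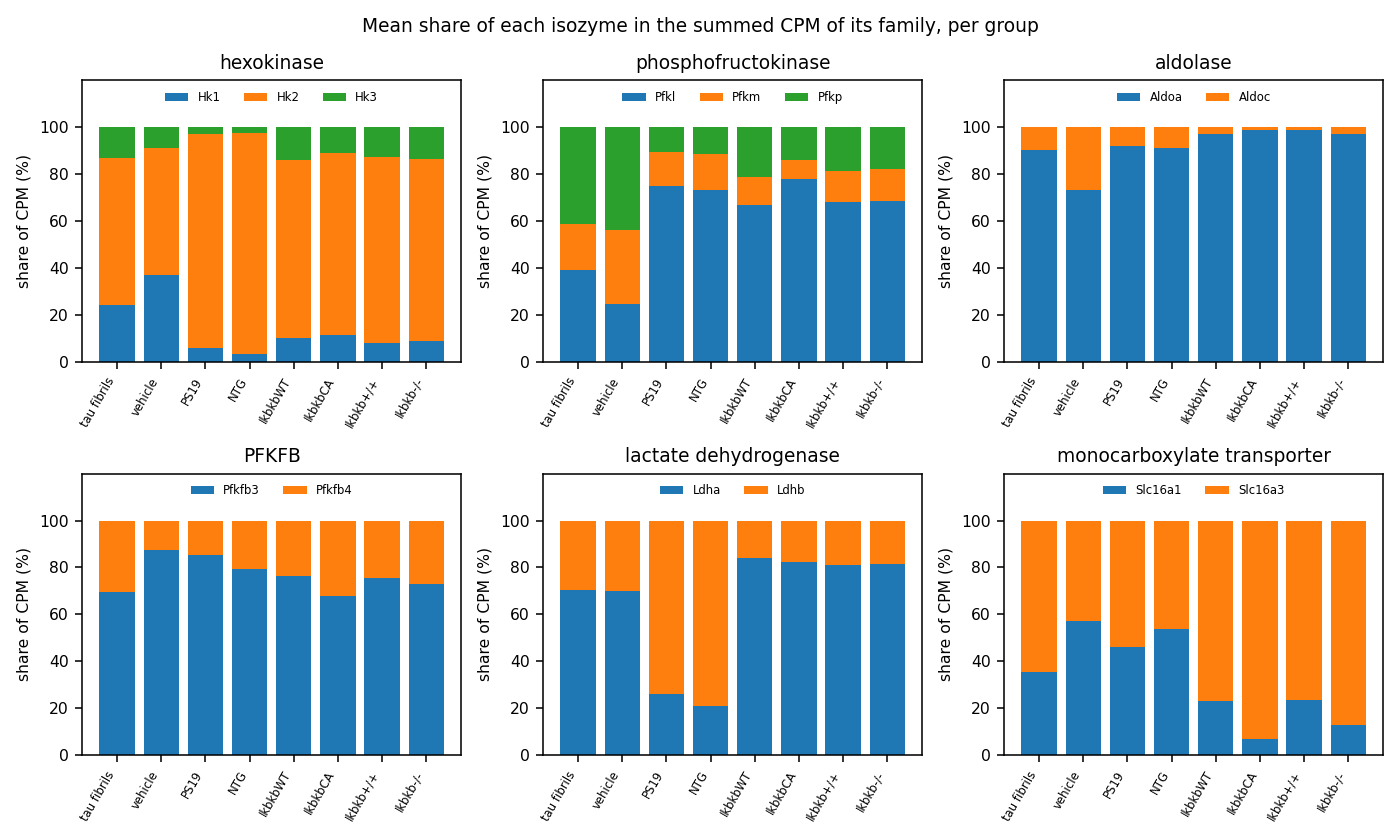
Mean share of each gene in the summed CPM of its family (stacked bars, percent) for 6 families in the 8 groups. The Slc16a3 share is larger in each treated or mutant culture group than in its control, and the Ldhb share is largest in PS19 and NTG.

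The promoters of the genes that moved together are shown for 2 groups, chosen by the calls above, those raised by IkbkbCA and different from Ikbkb-/- (Slc2a1, Slc16a3 and Hif1a; Aldoa has 3 start sites and is left out) and those called in the 3 culture comparisons (Slc2a6, Pfkfb4 and Slc16a1). The sequences are the 250 bases before the RefSeq start site on GRCm38.p6, 5′ to 3′ on the strand of the gene. They are in lower case with each ACGTG, on either strand, in capitals. ACGTG is a form of the core of the HIF response element, and another form, GCGTG, was not marked or counted. In CACGTG, the E-box, ACGTG is present on both strands.
Slc2a1, chr4:119108495-119108744 (+ strand): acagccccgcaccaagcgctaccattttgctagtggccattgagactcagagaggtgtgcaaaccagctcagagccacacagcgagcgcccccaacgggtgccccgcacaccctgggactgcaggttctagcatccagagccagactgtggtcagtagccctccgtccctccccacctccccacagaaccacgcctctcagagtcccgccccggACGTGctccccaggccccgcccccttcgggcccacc
Slc16a3, chr11:120948817-120949066 (+ strand): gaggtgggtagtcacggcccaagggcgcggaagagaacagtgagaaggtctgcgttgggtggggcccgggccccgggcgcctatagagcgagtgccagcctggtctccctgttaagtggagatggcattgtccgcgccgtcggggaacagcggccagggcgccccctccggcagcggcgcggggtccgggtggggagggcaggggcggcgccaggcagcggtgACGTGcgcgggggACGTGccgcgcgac
Hif1a, chr12:73907617-73907866 (+ strand): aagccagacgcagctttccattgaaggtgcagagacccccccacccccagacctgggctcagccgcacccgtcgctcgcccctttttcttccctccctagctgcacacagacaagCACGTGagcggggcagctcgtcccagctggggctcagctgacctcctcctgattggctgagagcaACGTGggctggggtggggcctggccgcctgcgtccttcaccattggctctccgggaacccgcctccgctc
Slc2a6, chr2:27027999-27028248 (- strand): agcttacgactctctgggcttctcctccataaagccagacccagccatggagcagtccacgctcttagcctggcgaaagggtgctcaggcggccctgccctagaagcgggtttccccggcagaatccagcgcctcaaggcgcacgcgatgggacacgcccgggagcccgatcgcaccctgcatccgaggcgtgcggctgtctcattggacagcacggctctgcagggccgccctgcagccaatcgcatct
Pfkfb4, chr9:108991652-108991901 (+ strand): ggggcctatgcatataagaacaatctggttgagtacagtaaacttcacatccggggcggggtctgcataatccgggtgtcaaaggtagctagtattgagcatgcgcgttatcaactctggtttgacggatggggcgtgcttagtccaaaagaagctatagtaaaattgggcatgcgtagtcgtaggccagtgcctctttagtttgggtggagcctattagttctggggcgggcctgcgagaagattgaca
Slc16a1, chr3:104638414-104638663 (+ strand): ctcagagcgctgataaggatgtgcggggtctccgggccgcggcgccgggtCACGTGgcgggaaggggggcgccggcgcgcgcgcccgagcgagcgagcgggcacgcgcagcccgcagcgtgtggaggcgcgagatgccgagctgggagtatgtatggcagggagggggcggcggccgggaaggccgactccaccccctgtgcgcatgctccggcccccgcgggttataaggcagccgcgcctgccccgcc

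ACGTG stood in the windows of Slc2a1, Slc16a3, Hif1a and Slc16a1, and these letters were in neither the Slc2a6 nor the Pfkfb4 window. Both of the latter hold GCGTG, as do the windows of Slc16a1 and, on the other strand, Slc2a1. The share of all promoter windows with GCGTG was not counted. Over all 36 genes, 16 had ACGTG in at least 1 window, beside 18.5% of all 27025 genes. By window 19 of 51 held it (37.3%), beside 16.6% of all 32851 promoter windows of the same length. Windows of a gene can overlap and count the same site again, as for Aldoa. The windows were not matched for GC content. CACGTG, which contains ACGTG, was in 6 of 51 windows (11.8%, all promoters 6.02%), and the antioxidant response element core TGACNNNGC in 4 (7.84%, all promoters 10.2%). The NF-κB consensus was in 0 of 51 windows and in 3.9% of all windows. All motifs were searched on both strands. Genes with ACGTG included both risers and Slc16a1, which fell, as well as Hk2, Ldha and Pfkfb3, which IkbkbCA did not move past the threshold. A match describes these letters only, and a window without it says nothing about the factor.

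The wider pathway was followed in lists of genes outside the 36. Among 31 further glycolysis genes, 15 to 18 were tested and 2 were called in each culture comparison, where the shares of all genes called were 29.9%, 14.5% and 14.6% for tau fibrils, IkbkbCA and Ikbkb-/-. They were Txnip (0.66) and Gpd2 (-0.46) with tau fibrils, Pgm1 (0.68) and Slc2a8 (-0.81) in IkbkbCA, and Slc2a9 (0.96) and Slc2a5 (-2.71), the fructose transporter of microglia, in Ikbkb-/-, all as log2 fold changes. Of 12 further pyruvate genes, 1 of 9 tested was called with tau fibrils (Pdhx, -0.63), 3 of 11 in IkbkbCA, with Dld at 0.31 and Slc16a7 at -1.10, and 1 of 11 in Ikbkb-/-. Of 9 further pentose phosphate genes, 2 of 6 tested rose with tau fibrils (Rbks, 2.28, and H6pd, 0.84), and IkbkbCA had Rpe (0.55) higher and Prps2 (-0.76) lower.

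Genes of the HIF pathway, which holds targets and regulators of HIF-1α, moved in both directions. With tau fibrils Hif1a rose while 6 of 18 tested fell and 0 rose, where 15.4% of all genes were called lower, with Epas1, which encodes HIF-2α, at -1.27 and Bhlhe40 at -1.22. In IkbkbCA 4 of 22 rose and 1 fell, beside 7.31% and 7.16% of all genes, led by Egln3 (0.83), a HIF prolyl hydroxylase, and Ero1l (0.78), and P4ha2 (-0.54) was lower. In Ikbkb-/-, beside 7.64% of all genes called higher and 6.96% lower, 2 of 21 rose (Ddit4, 0.84, and P4ha1, 0.32) and Ndrg1 (-0.90) fell. Of 18 tricarboxylic acid cycle genes, 4 of 17 were called with tau fibrils (1 higher), 3 of 18 in IkbkbCA (1 higher) and 2 of 18 in Ikbkb-/-, where Idh2 (-0.94) and Fh1 (-0.37) fell, as in IkbkbCA (-0.69 and -0.32). Of 12 NRF2 targets, 2 of 10 were called with tau fibrils, 1 of 10 in IkbkbCA and 3 of 9 in Ikbkb-/-, all 3 lower, led by Txnrd1 (-0.57). Of all genes, 29.9% were called with tau fibrils, 14.5% in IkbkbCA and 14.6% in Ikbkb-/-, in either direction. PS19 had 0 calls in these 6 lists by edgeR, with 2, 1, 0, 4, 0 and 0 genes at an unadjusted p under 0.05 in the order given here. Of all genes tested in PS19, 8.63% met that cut.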

How the data were processed

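RNA was measured by QuantSeq 3′ mRNA sequencing (FWD kit) in 34 mouse microglia libraries of 4 experiments, and 24 cortex samples of the series were not analysed here. The deposited counts are whole numbers of reads per Ensembl gene as the authors made them, with no normalization, and the summary lines below each table (reads outside genes, ambiguous or not unique) were kept out of library sizes. Those lines stood at 12.4% to 38.3% of reads outside genes. Gene names came from GENCODE M21 (47224 of 47643 genes named), and promoter sequences from RefSeq on GRCm38.p6.

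Each experiment was fitted alone in edgeR 4.0.16 (R 4.3.3) with TMM normalization, filterByExpr (minimum count 10, minimum total 15) and the quasi-likelihood test, with Benjamini-Hochberg adjustment over all genes tested and a threshold of 0.05. Differences between effects came from contrasts in fits of both experiments. CPM are reads of a gene per 1000000 reads of the TMM library size, within an experiment unless levels over all 34 libraries are named. The scripts were tested on simulated data. Alternatives were DESeq2 1.42.0, limma-voom (limma 3.58.1), other scalings and filters, covariates, 1 fit of all libraries and each library left out. Total counts of 1672052 to 8349128 set the precision of low genes. Fold changes from 3′ reads do not depend on transcript length. No 2 libraries held identical counts over 56 pairs within groups. Values in every library are given for at most 4 called genes with the largest rise and 4 with the largest fall per comparison whose groups did not overlap, and for Slc2a1, Hk2, Pfkfb3, Ldha, Slc16a3, G6pdx, Gapdh and Hif1a, with others added after their values were seen. The genes and lists were chosen with earlier results of these data known.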

Additional observations from a re-analysis of the deposited data

Results flagged for a closer look

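The values of 1 gene in 1 group of 4 or 5 libraries were taken as a set, for 96 sets. In 8 of them a library's gap to its nearest neighbour took up more of the range than Dixon's 95% limit allows. Chance gives about 1 in 20 independent sets, but sets of different genes share libraries and are not independent. IkbkbCA replicate 3 accounts for 4 of the 8, being the highest of its group for Slc2a1 (147 CPM), Pfkl (84.2 CPM), Aldoa (734 CPM) and Tpi1 (215 CPM). Without it these genes had log2 fold changes of 1.07, 0.68, 0.85 and 0.55, all past the threshold by edgeR. Its Mbp was 717 CPM, and the part of that difference in these values was not tested. IkbkbWT replicate 3, the other library of high Mbp, was the highest control for Slc16a1 (37.1 CPM). The other 3 were Pfkfb4 in tau_fibrils replicate 4 (70.0 CPM, the highest), Slc2a1 in vehicle replicate 4 (34.9 CPM, the one far from the rest) and Hk2 in NTG replicate 2 (567 CPM, the lowest).

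A further 11 values were singled out because the effect on a gene differed between experiments by a test of the difference (edgeR, Benjamini-Hochberg). IkbkbCA exceeded Ikbkb-/- by 1.51 (log2) for Slc2a1, 0.92 for Aldoa, 0.96 for Slc16a3 and 0.82 for Hif1a. Tau fibrils minus IkbkbCA gave -1.18 for Slc2a1, 1.02 for Hk3, -1.25 for Pfkm, 1.09 for Pfkfb4, -0.72 for Ldhb and -0.60 for Hif1a. Tau fibrils minus PS19 gave 1.66 for Pfkfb4.

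The lines of alignments with more than 1 place in the genome, which no comparison used, held at least 1.33 alignments per read counted on a gene in every library. These lines cannot be assigned to genes here, so what share of them belongs to Gapdh, Eno1, Pgk1 or Pgam1 is not known.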

How the results depend on the processing

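Over 41 called values and 776 alternatives, counting each library left out, 635 kept the call and 141 kept the direction without it, and 0 turned. The 16 called values that passed under every alternative run were Aldoa, Hif1a, Pfkfb4, Pfkl, Pkm, Slc16a3, Slc2a1 and Slc2a6 in IkbkbCA, Aldoc and Pfkfb4 with tau fibrils, Aldoa, Hif1a and Slc2a1 in the difference of IkbkbCA and Ikbkb-/-, Pfkfb4 and Slc2a1 in that of tau fibrils and IkbkbCA, and Pfkfb4 in that of tau fibrils and PS19. With libraries left out in turn the genes called ranged from 6 to 12 with tau fibrils (13 with all), 0 to 0 in PS19, 10 to 13 in IkbkbCA (12), 3 to 5 in Ikbkb-/- (5), 3 to 5 in the difference of IkbkbCA and Ikbkb-/- (4), 2 to 6 in that of tau fibrils and IkbkbCA (6) and 1 to 3 in that of tau fibrils and PS19 (1). In 1 fit of all 34 libraries 7 were called with tau fibrils, 4 in PS19 and 2 in Ikbkb-/-. With the percentage of reads outside annotated genes as a covariate 3 were called with tau fibrils, and with Ddx3y as a covariate 2 in Ikbkb-/-. Without a filter PS19 had 2, the difference of tau fibrils and IkbkbCA 3 and that of tau fibrils and PS19 3. DESeq2 called 1 in PS19 and 2 in the difference of tau fibrils and PS19, which total-count scaling also put at 2. With the PS19 libraries that stand apart left out, an alternative chosen after seeing the data, 4 were called. The cause was not tested for any of these.

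Turned signs were met only among genes not called. Pfkfb3 with tau fibrils (0.0758) was -0.0756 with total-count scaling and -0.0248 to 0.164 with libraries left out. In IkbkbCA Hk2 (0.0812) was -0.0717 without the high-Mbp libraries and -0.0204 to 0.204 with 1 library left out, and Pfkfb3 (-0.0568) ran from -0.117 to 0.0155. In Ikbkb-/- Hif1a was -0.15 and Aldoa -0.045 with the Ddx3y covariate. Under total-count scaling the summed CPM was 4028 in vehicle (3547 as reported), 3080 in NTG (3439) and 3454.5 in Ikbkb+/+ (3377). With tau fibrils it was 4308 (4261). No paired analysis was possible because the labels give no replicate numbers, and those used here follow the order of deposition. Genes of few reads, such as Slc2a6 with tau fibrils or Aldoc in Ikbkb-/-, are limited by depth.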
